A study of Mus musculus with 24 samples.

Results

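RNA levels of 10 genes of the NRF2 oxidative stress response were compared across the BURP mouse bladder tumors. The genes were Nfe2l2, Keap1, Nqo1, Gclc, Gclm, Slc7a11, Txnrd1, Srxn1, Hmox1 and G6pdx. They were chosen by name as the transcription factor, its inhibitor and well-known targets, and all 10 were found among the 53465 genes of the count table. The tumors were 24 subcutaneous allografts, 3 from each of 8 lines, and each line descended from a single donor tumor. Donors were C57BL/6NTac mice that drank the bladder carcinogen BBN at 0.1% from 8 weeks of age for up to 36 weeks, and the tumors were passaged in immune-intact hosts of the same strain and sex. The 6 basal/squamous (Ba/Sq) lines were split by sex of the donor and host, with BURP-18BaSq, BURP-17BaSq and BURP-12BaSq male and BURP-25BaSq, BURP-24BaSq and BURP-21BaSq female. The stroma-rich line BURP-16SR and the neuroendocrine-like line BURP-19NE were both from male mice. In the study 1 of the 3 BURP-16SR replicates correlated highly with the neuroendocrine-like class, and the others with the stroma-rich class. Since each of those subtypes was represented by 1 line, subtype and line cannot be told apart, and p-values measure only the spread between tumors. The lines BURP-16SR and BURP-24BaSq were also used for cisplatin treatment, and whether any sequenced tumor had been treated is not stated.

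NRF2, the protein encoded by Nfe2l2, is the master transcription factor of the cellular response to oxidants and electrophiles. In unstressed cells KEAP1 holds NRF2 in the cytoplasm and presents it to the CUL3 ubiquitin ligase for degradation. Oxidants modify cysteines of KEAP1, and NRF2 then enters the nucleus, pairs with a small MAF protein and binds antioxidant response elements near its target genes. The targets make and recycle glutathione, import cystine, run the thioredoxin system, detoxify quinones, break down heme and supply NADPH. The pathway is regulated mainly at the level of the NRF2 protein, so the Nfe2l2 transcript is not itself a readout of NRF2 activity. In human bladder and squamous cancers the pathway can be switched on by mutations, which were not assessed here.

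Levels are given as CPM, counts scaled to a common library total, after TMM scaling, the trimmed mean of M-values. Library totals ran from 9295708 to 25370320 counts, with a median of 17693147. In the BURP-25BaSq tumor C102-M30, 61.9% of the counts lay on 1 ribosomal RNA locus, leaving 3725742 counts on other genes and 1992 on the 10 genes. The BURP-25BaSq tumor C102-M1 resembled BURP-21BaSq (mean Pearson r 0.977 with its 3 tumors) more than the other tumors of its own line (0.919 with 2 tumors). It was kept as labelled, and results on BURP-25BaSq are given with and without it. The 8 basal/squamous markers, among them Krt5, Krt14 and Trp63, summed to 9836 to 22726 CPM in the 18 Ba/Sq tumors. The same sum was 6.16 to 18.1 CPM in BURP-16SR, where Dsg3 was at 0, and 20.4 to 49.0 CPM in BURP-19NE.

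The core of the antioxidant response element, TGACNNNGC, was searched on both strands of the RefSeq promoter windows of GRCm38.p6, each running from 250 bases before to 50 bases after a start site. Windows were at hand for 8 of the 10 genes, all but Gclc and Hmox1, and 5 of the 8 held a match. Of all 32851 windows 12.4% held the core, and 14.0% of all 27025 genes had it in at least 1 window. The 29 bases around each of the 5 matches are shown because these genes share the letters that the factor is known to read. Capitals mark the core or, for all but Nfe2l2, its reverse complement GCNNNGTCA.
Nfe2l2 (chr2:75704885-75704913, minus strand): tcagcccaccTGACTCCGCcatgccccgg
Srxn1 (chr2:152105542-152105570, plus strand): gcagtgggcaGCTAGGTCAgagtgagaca
Gclm (chr3:122245413-122245441, plus strand): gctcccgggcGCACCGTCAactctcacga
Txnrd1 (chr10:82859104-82859132, plus strand): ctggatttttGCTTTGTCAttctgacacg
G6pdx (chrX:74428919-74428947, minus strand): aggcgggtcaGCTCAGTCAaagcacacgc
The first base of the match lay at -240 from the start site in Nfe2l2, at -134 in Gclm, at -92 in Txnrd1, at -57 in G6pdx and at 28 after it in Srxn1. The Srxn1 and G6pdx matches fell inside annotated 5′ untranslated sequence of GENCODE transcripts. The windows of Nqo1, Slc7a11 and Keap1 did not hold these letters, which says nothing of elements farther away. Among the 26 other NRF2 targets with a window, 9 held the core. A match is a description of the letters and not evidence of binding.

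All 10 genes were detected in every tumor, but they differed widely in level and in spread. Per kilobase of exon, the mean level over the 24 tumors was highest for G6pdx (35.0 CPM per kb) and Nfe2l2 (29.0), and lowest for Slc7a11 (3.43) and Nqo1 (2.42). The spread between the lowest and highest tumor was 82.4-fold for Slc7a11, 54.0-fold for Nqo1 and 12.7-fold for Gclm. For Hmox1 it was 8.58-fold and for Gclc 4.97-fold. The other 5 genes, including both regulators, varied 2.21-fold to 3.59-fold. The most variable genes were thus a transporter, a detoxifying enzyme and a glutathione enzyme subunit.

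**Figure D1:**
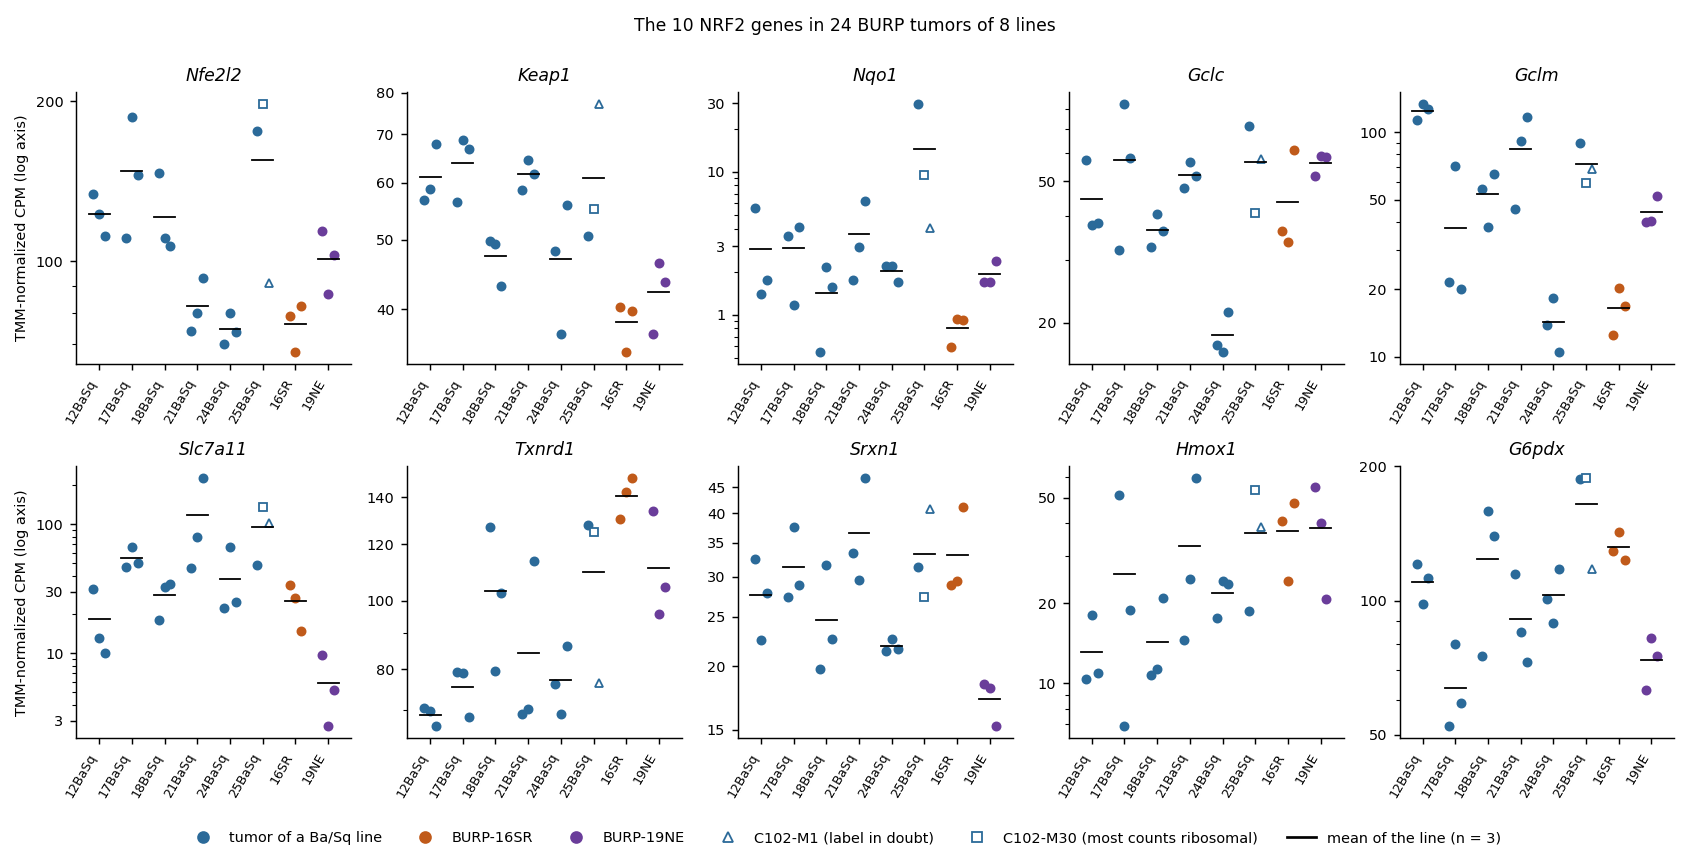
Level of each of the 10 genes in the 24 tumors, in TMM-scaled CPM on a log axis, with 1 point per tumor, lines along the x axis and a bar at the mean of each line. Slc7a11 sits lowest in BURP-19NE (2.74 to 9.72 CPM), Gclm in BURP-24BaSq and BURP-16SR (10.5 to 20.3 CPM), and Nqo1 is highest in BURP-25BaSq tumor C102-M3 (29.7 CPM).

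Of the regulators, Nfe2l2 (chr2:75675513-75704641, minus strand) was measured at 67.6 to 197 CPM. Its line means ran from 155 ± 56.2 CPM (SD, n = 3) in BURP-25BaSq to 74.6 ± 5.10 CPM in BURP-24BaSq, a 2.07-fold range. The BURP-25BaSq tumors stood at 176, 197 and 91.1 CPM, the lowest being C102-M1. BURP-24BaSq tumors gave 70.1, 80.1 and 73.7 CPM, and BURP-16SR tumors 78.8, 67.6 and 82.5 CPM. Between these ends came BURP-17BaSq, BURP-12BaSq, BURP-18BaSq, BURP-19NE and BURP-21BaSq, and every neighbouring pair in the order overlapped. Keap1 (chr9:21229730-21239361, minus strand), the inhibitor, was the least variable, from 34.9 to 77.2 CPM. Its line means ran from 64.0 ± 6.62 CPM in BURP-17BaSq to 38.4 ± 2.996 CPM in BURP-16SR. BURP-16SR tumors gave 40.4, 34.9 and 39.8 CPM and BURP-19NE tumors 37.0, 46.4 and 43.6 CPM, against a Ba/Sq range of 36.9 to 77.2 CPM, so 1 of these 6 tumors lay below that range and 5 inside it. The only neighbouring lines in the Keap1 order without overlap were BURP-25BaSq and BURP-18BaSq.

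Gclc and Gclm encode the catalytic and the modifier subunit of glutamate-cysteine ligase, the rate-limiting enzyme of glutathione synthesis. Gclc (chr9:77754535-77794485, plus strand) was lowest in BURP-24BaSq, at 17.3, 16.6 and 21.4 CPM. Every other tumor lay between 32.1 and 82.5 CPM, so that line stood apart. The Gclc means of the other 7 lines ran from 36.5 ± 3.86 CPM in BURP-18BaSq to 57.6 ± 25.2 CPM in BURP-17BaSq, and neighbours among them overlapped. Gclm (chr3:122245557-122270732, plus strand) varied more. It was highest in BURP-12BaSq, at 113, 134 and 127 CPM, and lowest in BURP-24BaSq, at 13.9, 18.4 and 10.5 CPM. BURP-16SR tumors were almost as low, at 12.5, 20.3 and 16.9 CPM. BURP-17BaSq was mixed, with 21.5, 70.9 and 19.97 CPM, while BURP-19NE gave 39.9, 40.1 and 52.3 CPM. Line means of Gclm spanned 8.74-fold, and all neighbours in the order overlapped. BURP-16SR was low in Gclm without being low in Gclc (36.2, 33.7 and 61.2 CPM), whereas BURP-24BaSq was low in both subunits.

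Slc7a11 (chr3:49892526-50443614, minus strand) encodes xCT, the transporter that brings in cystine in exchange for glutamate, and it was the most variable of the genes. BURP-19NE tumors gave 9.72, 2.74 and 5.17 CPM. All 18 Ba/Sq tumors were higher, from 10.1 to 226 CPM with a median of 46.4, and so were the BURP-16SR tumors at 33.99, 26.8 and 14.8 CPM. The Ba/Sq lines ranged from BURP-12BaSq, with 31.6, 13.3 and 10.1 CPM, to BURP-21BaSq, with 46.1, 79.1 and 226 CPM. Line means spanned 19.9-fold. BURP-12BaSq and BURP-19NE, at the bottom of the order, were the only neighbours that did not overlap, and their closest tumors stood at 10.1 and 9.72 CPM.

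The thioredoxin system was represented by Txnrd1, cytosolic thioredoxin reductase, and Srxn1, the sulfiredoxin that repairs overoxidised peroxiredoxins. Txnrd1 (chr10:82833951-82897712, plus strand) was highest in BURP-16SR, at 130.2, 142 and 148.8 CPM. The 18 Ba/Sq tumors lay between 66.5 and 128 CPM, and BURP-19NE gave 134, 95.6 and 104 CPM. Its lowest line was BURP-12BaSq, at 70.5, 69.9 and 66.5 CPM. Srxn1 (chr2:152105516-152111376, plus strand) was lowest in BURP-19NE, at 18.4, 18.1 and 15.3 CPM, below the Ba/Sq range of 19.8 to 46.8 CPM. BURP-16SR tumors gave 28.8, 29.4 and 41.2 CPM, inside that range. These genes of the same system therefore differed in which line was extreme.

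Nqo1 (chr8:107388225-107403206, minus strand) encodes a quinone reductase widely used as a readout of NRF2 activity, and here it was the lowest of the genes per kilobase of exon. In 21 of the 24 tumors it lay between 0.549 and 5.54 CPM. The 3 highest values were 29.7 CPM in C102-M3 and 9.40 CPM in C102-M30, both of BURP-25BaSq, and 6.23 CPM in a BURP-21BaSq tumor. The third BURP-25BaSq tumor, C102-M1, gave 4.05 CPM, inside the BURP-21BaSq range of 1.74 to 6.23 CPM. BURP-16SR tumors were at 0.593, 0.929 and 0.909 CPM and BURP-19NE tumors at 1.68, 1.69 and 2.36 CPM. A count of 3, taken as the smallest level a library could show, corresponded to at most 0.254 CPM in BURP-16SR, so the gene was low but detected there. In C102-M30, the library with the fewest counts outside its top ribosomal RNA locus, the same limit was 1.34 CPM.

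Hmox1 (chr8:75093621-75100589, plus strand) encodes heme oxygenase-1, which opens the heme ring and is also strongly made by macrophages. Levels ran from 6.89 to 59.1 CPM, and tumors of the same line differed widely, while line means spanned 2.93-fold. BURP-17BaSq tumors gave 51.3, 6.89 and 18.8 CPM and BURP-21BaSq tumors 14.5, 24.6 and 59.1 CPM. BURP-19NE, with 54.6, 40.1 and 20.7 CPM, had the highest mean, and BURP-12BaSq, with 10.4, 18.01 and 10.95 CPM, the lowest. All neighbours in the order overlapped. Hmox1 varied with the markers of several host cell types. Over the 18 Ba/Sq tumors its Spearman rho was 0.80 with the summed macrophage markers, 0.68 with fibroblast markers and 0.81 with endothelial markers. Over all 24 tumors these were 0.60, 0.60 and 0.66. In the same order of tumor sets, erythroid markers gave 0.62 and 0.56, muscle markers 0.35 and 0.44, and neutrophil markers 0.25 and -0.04. In BURP-17BaSq the tumor highest in Hmox1, C152-M1, had a macrophage sum of 1190 CPM, and the lowest, C165-M30, one of 104 CPM. These were also the ends of the Ba/Sq range of that sum, while the 10 macrophage markers summed to 154 to 923 CPM in BURP-16SR and to 264 to 353 CPM in BURP-19NE, with each of the 10 detected in each line. These points share a library, and the part of host cells in the Hmox1 values was not tested. In bulk tumor RNA, fewer cells of a type and less RNA per cell cannot be told apart, which holds for all 10 genes.

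G6pdx (chrX:74409483-74429194, minus strand) encodes glucose-6-phosphate dehydrogenase, which feeds the pathway with NADPH. BURP-25BaSq was highest, with 188 CPM in both C102-M3 and C102-M30 and 118 CPM in C102-M1. BURP-17BaSq was lowest, at 52.3, 79.8 and 59.1 CPM, followed by BURP-19NE at 63.1, 82.3 and 75.0 CPM. BURP-16SR tumors gave 129, 143 and 123 CPM. Line means spanned 2.58-fold and all neighbours overlapped. Its near-identical copy G6pd2 never exceeded 6 counts in a tumor. Those counts came after shared reads had been divided between the copies, and that division was not tested.

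The neuroendocrine-like line was compared with the Ba/Sq lines first. Slc7a11 was lower in BURP-19NE, at 5.88 ± 3.54 CPM (n = 3) against 58.6 ± 52.8 CPM (n = 18), a log2 fold change of -3.29 ± 0.88 (SE). The adjusted p was 0.00633 in edgeR's quasi-likelihood test with Benjamini-Hochberg adjustment over all genes, and all 3 tumors lay below all 18. Srxn1 also passed the test with no overlap, at a log2 fold change of -0.74 ± 0.23 and an adjusted p of 0.0151, but by less than 2-fold. That change missed the threshold without C80-M30 (adjusted p = 0.0781). The other 8 genes did not pass, among them Keap1 (-0.41, adjusted p = 0.0643), Gclm (-0.52), Nqo1 (-1.21) and, in the other direction, Hmox1 (0.69). A gene is counted here where its adjusted p was under 0.05 and its change above 2-fold. By that rule 1 of the 10 genes was lower, against 15% of the 20995 genes tested, and 0 were higher, against 9.33%. The share of the 10 genes was close to that of all genes, and their median log2 fold change was -0.46 against -0.14 over all genes.

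The stroma-rich line was then compared with the same Ba/Sq tumors, which both comparisons share. Gclm was lower in BURP-16SR, at 16.6 ± 3.88 CPM against 64.5 ± 40.5 CPM, a log2 fold change of -1.88 ± 0.68 with an adjusted p of 0.0480. The groups overlapped, since BURP-24BaSq and BURP-17BaSq tumors reached down to 10.5 CPM. The call held in 7 of the 21 fits that left out 1 tumor. It was lost without C73-M10 (adjusted p = 0.176), C74-MNT (0.105) or P5 (0.124) of BURP-16SR. It was also lost, at 0.0515 to 0.0586, without any 1 tumor of BURP-12BaSq, BURP-21BaSq or BURP-25BaSq, without C165-M30 of BURP-17BaSq or without P4 of BURP-18BaSq. Txnrd1 was higher, at 140.5 ± 9.44 CPM against 86.5 ± 22.1 CPM, with no overlap, a log2 fold change of 0.77 ± 0.20 and an adjusted p of 0.00699. Keap1 was lower, at -0.50 (adjusted p = 0.0348), and both of these changes were under 2-fold. Txnrd1 missed the threshold without the BURP-16SR tumor P5 (0.0686), and Keap1 without C73-M10 (0.0794), C74-MNT (0.147) or P5 (0.0605). Nqo1, at -2.40 ± 1.001, did not pass (adjusted p = 0.0831), but did without C102-M3 (-1.81, 0.0486). By the 2-fold rule 1 of 10 was lower, against 8.62% of 21028 genes, and 0 were higher, against 10.5%. The median over the 10 genes was -0.23 and that over all genes -0.03.

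BURP-16SR and BURP-19NE were next compared with each other, and 4 of the 10 genes were called. In BURP-16SR, Slc7a11 was higher by 2.20 ± 0.53 on the log2 scale (adjusted p = 0.0208) and Srxn1 by 1.03 ± 0.18 (adjusted p = 0.00686). Gclm was lower, with a log2 fold change of -1.32 ± 0.22 (adjusted p = 0.00648), and so was Nqo1, with -1.14 ± 0.33 (adjusted p = 0.0385). For all 4 genes the 3 tumors of each line did not overlap. The same held for Nfe2l2, which did not pass (-0.32, adjusted p = 0.136). The share of all genes without overlap was not counted. By the 2-fold rule 2 of 10 were higher, against 14.8% of 17556 genes, and 2 of 10 lower, against 8.86%. G6pdx passed without reaching 2-fold, at 0.94 ± 0.15 (adjusted p = 0.00556, no overlap). The Gclm call held without each tumor in turn, whereas that of Nqo1 was lost without any 1 of the 6, at adjusted p-values of 0.0533 to 0.139. Slc7a11 missed the threshold without C73-M10 (adjusted p = 0.0704), C80-M3 (0.0553) or C80-M30 (0.0796), and Srxn1 fell under 2-fold without the BURP-16SR tumor P5 (0.83) or C80-M30 (0.93). The median over the 10 genes was 0.00 and that over all genes 0.06.

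**Figure D2:**
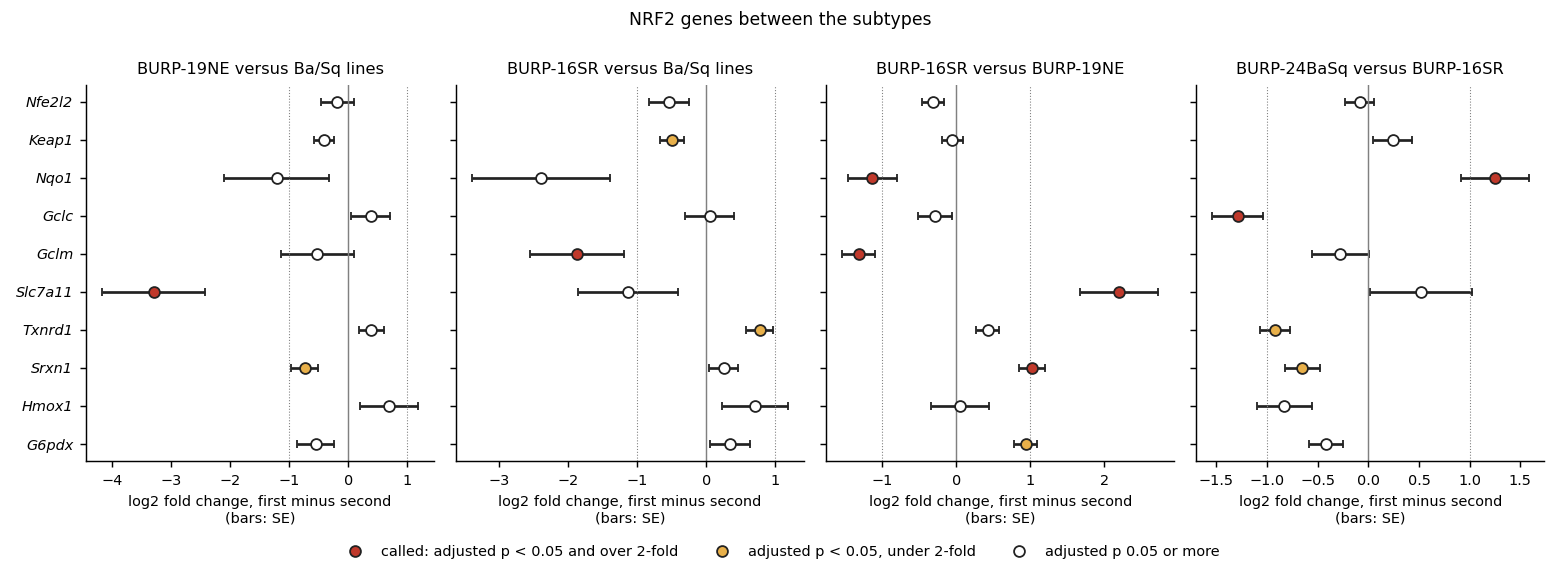
Log2 fold changes of the 10 genes (x axis, bars of 1 SE) in 4 comparisons of lines, with red points for an adjusted p under 0.05 and over 2-fold, yellow points for an adjusted p under 0.05 and a smaller change, and open points for the rest. Slc7a11 lies farthest from 0 in BURP-19NE against the Ba/Sq lines (-3.29), and Txnrd1 is on the higher side in BURP-16SR (0.77).

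Comparing BURP-24BaSq to BURP-16SR sets the lines that the study treated with cisplatin side by side. In the study cisplatin inhibited the growth of BURP-16SR, while BURP-24BaSq grew no differently from vehicle controls. Glutathione can bind electrophilic drugs, which makes these genes of interest there. Any tie of their levels to the response was not tested. Gclc was lower in BURP-24BaSq, at 18.4 ± 2.601 CPM against 43.7 ± 15.2 CPM, a log2 fold change of -1.29 ± 0.25 (adjusted p = 0.00798). Nqo1 was higher, at 2.02 ± 0.281 CPM against 0.811 ± 0.188 CPM, with 1.25 ± 0.33 (adjusted p = 0.0248). Txnrd1 (-0.92, adjusted p = 0.00358) and Srxn1 (-0.65, adjusted p = 0.0254) were lower by less than 2-fold. In these 4 genes the 3 tumors of each line did not overlap. The same held for G6pdx, which did not pass (-0.42, adjusted p = 0.0910). The share of all genes without overlap was not counted here either. Gclm was low in both lines and gave -0.28 (adjusted p = 0.467). Hmox1, at -0.83, had an adjusted p of 0.0502. By the 2-fold rule 1 of 10 was higher, against 13.2% of 18283 genes, and 1 lower, against 15.8%, shares near those of all genes. Without the BURP-16SR tumor P5 the Gclc change was -0.93. Srxn1 missed the threshold without P5 (0.0667) or without any 1 BURP-24BaSq tumor (0.069 to 0.101), and Hmox1 passed it without C74-MNT (-1.06, 0.0108). The Nqo1 call was lost without C81-M1 (adjusted p = 0.0983), C81-M30 (0.0818), P2 (0.0575) or C73-M10 (0.0836).

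Among the Ba/Sq lines, BURP-24BaSq stood out for low expression of both subunits of glutamate-cysteine ligase. Against the other 15 Ba/Sq tumors, Gclc was lower, with a log2 fold change of -1.43 ± 0.28 (adjusted p = 0.00950), and so was Gclm, with -2.39 ± 0.54 (adjusted p = 0.0224). The highest BURP-24BaSq tumor had 21.4 CPM of Gclc against a lowest value of 32.1 CPM elsewhere, and 18.4 CPM of Gclm against 19.97 CPM. This made 2 of 10 genes lower, against 0.707% of 20523 genes, and 0 higher, against 0.945%. The median of the 10 genes was -0.61 and that of all genes -0.11. The Gclc call was lost without C81-M1 (adjusted p = 0.0872) or C81-M30 (0.104), and the Gclm call without C81-M1 (0.139), C81-M30 (0.120) or P2 (0.145), so the calls needed most or all of the 3 tumors. Over the 18 Ba/Sq tumors Gclm had a Spearman rho of -0.67 with the basal/squamous marker sum, and over all 24 tumors -0.06. In BURP-24BaSq that sum was 16813 to 22726 CPM. With the fibroblast marker sum the values were -0.53 and -0.52. The part of these sums in the Gclm values was not tested.

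BURP-25BaSq was the line with the highest Nqo1. Its tumors averaged 14.4 ± 13.5 CPM against 2.58 ± 1.62 CPM in the other 15, a log2 fold change of 2.47 ± 0.49 (adjusted p = 0.0340), with overlap through C102-M1. This was 1 of 10 genes higher, against 0.263% of 20523 genes, and 0 lower, against 0.00975%. With all 3 tumors, G6pdx gave 0.74 (adjusted p = 0.327), Nfe2l2 0.49 (0.592) and Txnrd1 0.42 (0.534). Without C102-M1 the Nqo1 change was 2.92 ± 0.51 (adjusted p = 0.00505), while 1.04% of 21271 genes were called higher. In that fit G6pdx gave 0.93 (0.122), Nfe2l2 0.76 (0.215) and Txnrd1 0.63 (0.172). Without C102-M3, at 29.7 CPM, the Nqo1 change was 1.34 (adjusted p = 0.967), and without C102-M30, at 9.40 CPM, it was 2.66 (0.124). The call was thus lost when either of these tumors alone was left out. It also missed the threshold, at 0.0517 to 0.0593, without any 1 BURP-24BaSq tumor, without C47-M30 or C47-M3 of BURP-12BaSq, C165-M30 of BURP-17BaSq, C149-M3 of BURP-18BaSq, or P4 or P4.2 of BURP-21BaSq. C102-M3 and C102-M30 lay above all 15 tumors of the other Ba/Sq lines for Nqo1 and for G6pdx, where the highest other value was 159 CPM. This was 2 of the 10 genes, against 3.99% of 18865 genes with a mean of at least 10 counts per tumor, a count made after the levels were seen. Of 30 other NRF2 targets it held for 3, which were Mgst1, a microsomal glutathione transferase (66.5 and 28.2 CPM against at most 24.1), Gsta4, a glutathione transferase for lipid aldehydes (896 and 759 CPM against at most 539.6), and Ugdh, which makes UDP-glucuronate (237 and 115 CPM against at most 98.5). In C102-M1 Gsta4 and Ugdh stood at 89.8 and 40.9 CPM. Without C102-M1, Ugdh was called higher (1.79, adjusted p = 0.0151), 1 of the 9 detoxification genes. With all 3 tumors 0 of the 9 were called.

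**Figure D3:**
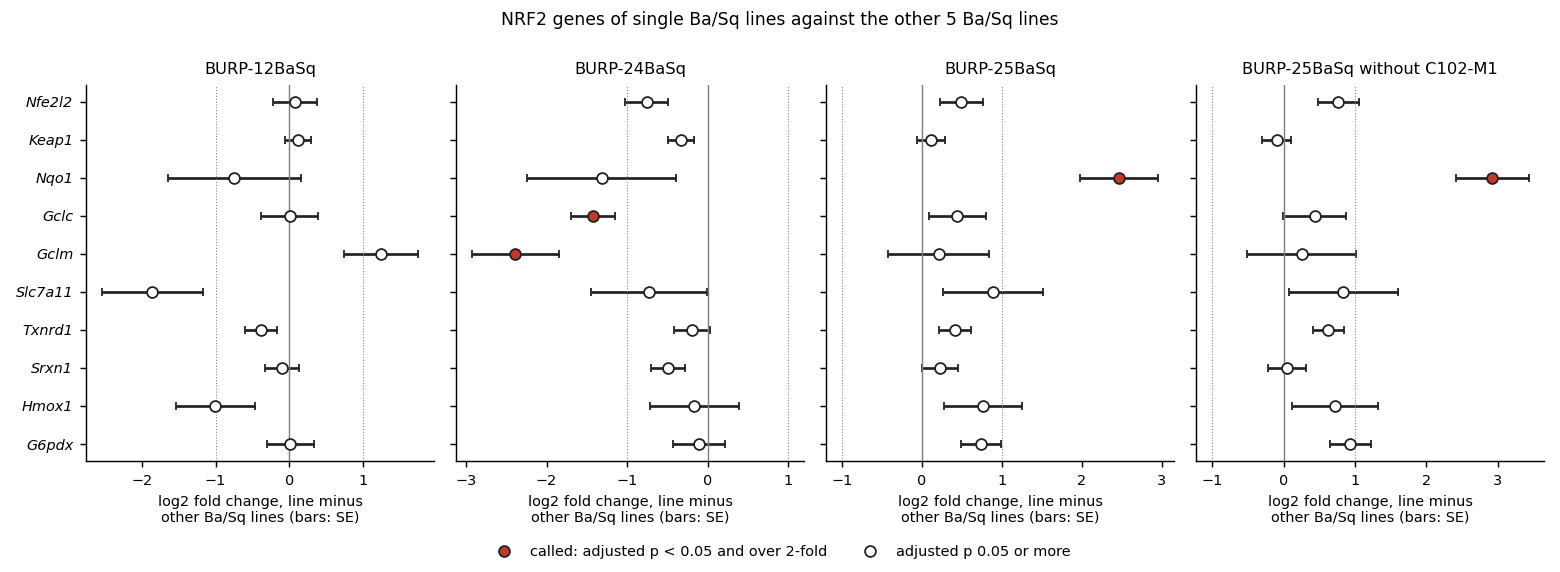
Log2 fold changes of the 10 genes (x axis, bars of 1 SE) in BURP-12BaSq, BURP-24BaSq, BURP-25BaSq and BURP-25BaSq without C102-M1, each against the other 5 Ba/Sq lines, with red points for calls and open points for the rest. The calls are Gclc (-1.43) and Gclm (-2.39) in BURP-24BaSq and Nqo1 in BURP-25BaSq (2.47, or 2.92 without C102-M1).

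In the other 4 Ba/Sq lines none of the 10 genes was called by edgeR's quasi-likelihood test. In BURP-12BaSq, where 2.1% of the 20523 genes were higher and 2.48% lower, the largest values were Gclm at 1.25 (adjusted p = 0.137) and Slc7a11 at -1.86 (adjusted p = 0.105), 2 of 10 had an unadjusted p under 0.05, and DESeq2 called 1 of 10. In BURP-17BaSq, with 0.76% higher and 0.312% lower, G6pdx gave -0.89 (adjusted p = 0.118) and was the 1 gene with an unadjusted p under 0.05, while DESeq2 called 0. BURP-18BaSq, with 5.97% higher and 4.09% lower, and BURP-21BaSq, with 0.00975% in each direction, also had 0 of 10 by both tools, with 0 and 1 gene at an unadjusted p under 0.05. In BURP-21BaSq the widest value was that of Slc7a11, 1.33 with an adjusted p of 0.407.

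Female and male Ba/Sq lines were compared because the study examined sex within this subtype. By edgeR's quasi-likelihood test 0 of the 10 genes passed (2 at an unadjusted p under 0.05, and 1 called by DESeq2), against 1.22% of 17922 genes higher in female and 1.09% higher in male lines. Slc7a11 averaged 83.4 ± 64.7 CPM in the 9 tumors of female lines and 33.7 ± 18.5 CPM in the 9 of male lines, a log2 fold change of 1.31 ± 0.44 (adjusted p = 0.0829), with overlap. It passed without BURP-17BaSq (1.83, adjusted p = 0.0284) or without BURP-24BaSq (1.70, 0.0486). Nqo1, at 1.44, had an adjusted p of 0.139, and Hmox1, at 0.77, one of 0.217. Hmox1 passed without the BURP-17BaSq tumor C152-M1 (1.16, 0.0362) or without that whole line (1.14, 0.0353). These p-values treat the tumors of a line as separate samples. When counts were summed per line, leaving 3 lines a sex, Slc7a11 gave 1.31 with an adjusted p of 0.772, and with line as a random effect 1.08 and 0.691. Neither of those fits called any of all genes.

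The other genes of the pathway were then taken from fixed lists. Of 12 regulators and partners of NRF2, BURP-19NE had 2 higher than the Ba/Sq lines, Sqstm1 (1.15, adjusted p = 0.00104), the autophagy receptor that can sequester KEAP1, and Btrc (1.42, 0.00119), a ubiquitin ligase adaptor that also recognises NRF2. BURP-16SR had 1 higher, the small MAF gene Maff (1.62, 0.0089). Of 9 other glutathione genes, 2 were lower in both lines and 1 was higher in BURP-19NE. Gpx2, an epithelial glutathione peroxidase, had 0 counts in all 6 tumors of BURP-16SR and BURP-19NE and 19.6 to 310.2 CPM in the 18 Ba/Sq tumors. Against 3 counts per library as the floor, BURP-16SR had at least 342-fold lower and BURP-19NE at least 550-fold lower Gpx2. Gsta4 stood at 0.155 to 0.424 CPM in BURP-16SR, 0.295 to 2.22 CPM in BURP-19NE and 36.1 to 896 CPM in the Ba/Sq tumors. Both genes thus went with the basal/squamous marker sums given above, and the part of epithelial content in them was not tested. Gstp1, a major glutathione transferase, was higher in BURP-19NE, at 156, 198 and 134 CPM, by 1.77 on the log2 scale (7.27e-05).

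The thioredoxin gene Txn1, substrate of Txnrd1, was lower in both lines, with log2 fold changes of -1.51 in BURP-16SR (adjusted p = 0.000334) and -1.32 in BURP-19NE (0.000564). In BURP-16SR the reductase Txnrd1 and its substrate therefore lay on opposite sides of the Ba/Sq tumors, with Txn1 at 55.7, 66.6 and 66.6 CPM against at least 99.8 CPM. Of 5 NADPH genes, Idh1 alone was called, lower in BURP-16SR (-1.04, 0.0142). Of 9 detoxification genes, BURP-19NE had 3 lower, which were Ephx1 (-4.44, 0.00213), Cbr3 (-4.38, 1.57e-05) and Osgin1 (-3.88, 0.000119), and 1 higher, Aox1 (1.79, 0.00868). BURP-16SR had 2 higher, Aox1 (1.86, 0.00912) and Ugdh (1.39, 0.0243), and 1 lower, Osgin1 (-1.87, 0.0188). Both ferritin genes of the 4 heme and iron genes were higher in BURP-16SR, Ftl1 by 1.85 (0.000132) and Fth1 by 1.002 (0.0121). In the same comparison 4 of 7 fibroblast markers and 3 of 6 endothelial markers were called higher, and 0 of 10 macrophage markers. The fibroblast markers summed to 582 CPM in tumor P5 of BURP-16SR, 7467 CPM in C73-M10 and 20027 CPM in C74-MNT. In the Ba/Sq tumors they summed to 207 to 9796 CPM. The endothelial markers summed to 237 to 349 CPM in BURP-16SR and 28.8 to 403 CPM in the Ba/Sq tumors. The part of these cells in the changes of BURP-16SR was not tested. Ferritin and thioredoxin genes have many processed pseudogenes, so how reads were divided among copies makes their levels less certain. In BURP-19NE 0 of the 5 NADPH genes and 0 of the 4 heme and iron genes were called. In that line 5 of 6 muscle markers were higher, their sum running from 3.22 to 555 CPM over its 3 tumors, and 4 of the 5 neutrophil markers tested were lower, and their part in its changes was not tested. The list counts stand against 15% lower and 9.33% higher of all genes in BURP-19NE, and 8.62% and 10.5% in BURP-16SR.

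**Figure D4:**
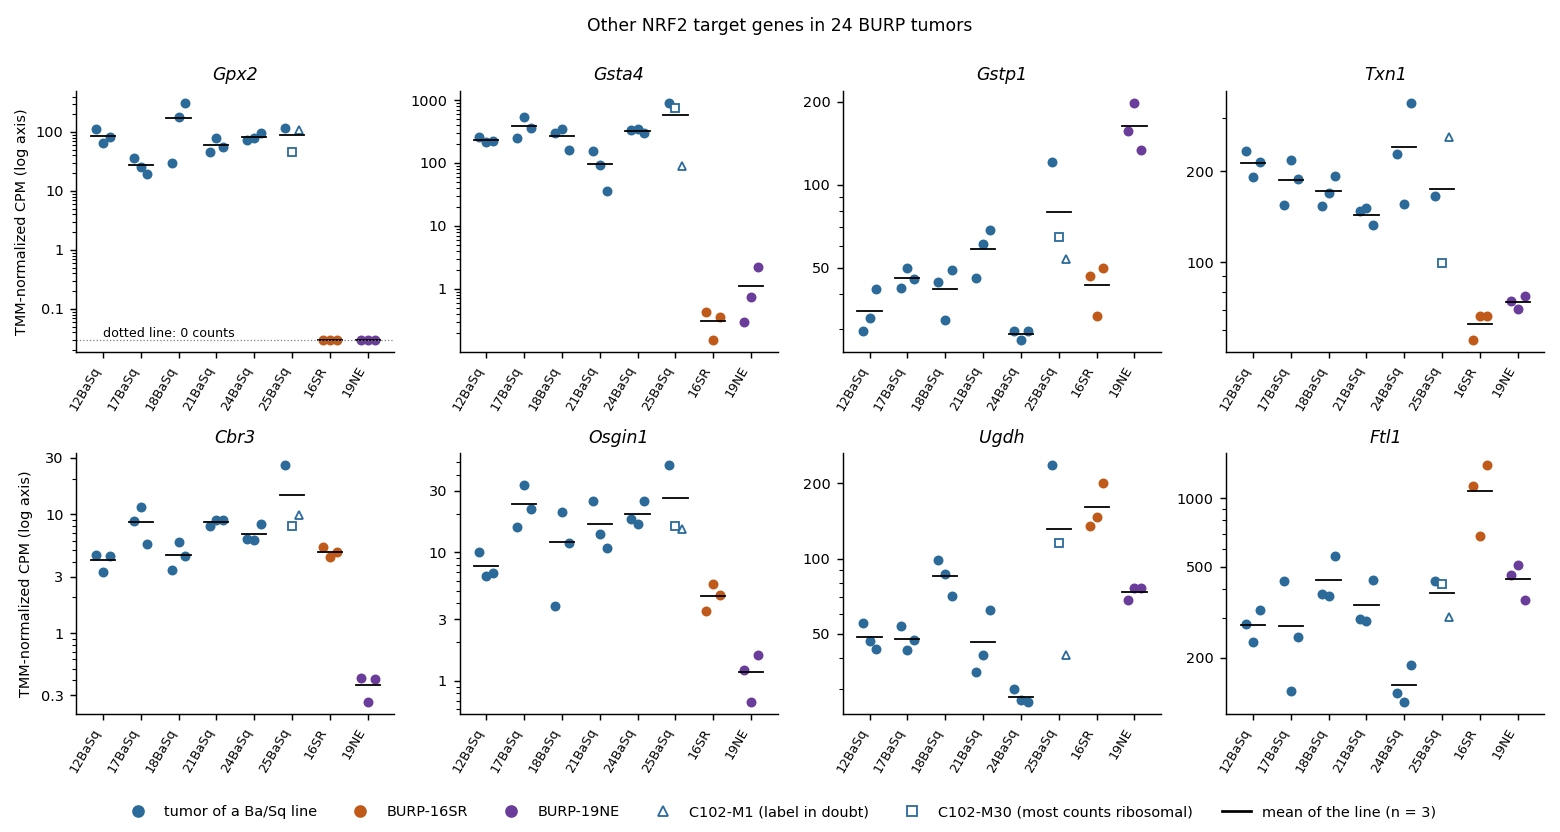
Level of 8 other NRF2 targets in the 24 tumors, in TMM-scaled CPM on a log axis, with 1 point per tumor, a bar at the mean of each line and a dotted line for tumors with 0 counts. Gpx2 and Gsta4 are far lower in BURP-16SR and BURP-19NE than in the Ba/Sq lines, Gstp1 is highest in BURP-19NE (134 to 198 CPM), and Cbr3 is lowest there.

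BURP-24BaSq and BURP-16SR differed in several of these genes as well, while 13.2% of all genes were higher and 15.8% lower in BURP-24BaSq. In BURP-24BaSq 3 of the 9 glutathione genes were higher, which were Gpx2 (at least 330-fold), Gsta4 (294 to 346 CPM against 0.155 to 0.424) and Ggt1 (2.98 to 4.13 CPM against at most 1 count in BURP-16SR). Ggt1, which breaks down extracellular glutathione, was also higher in BURP-24BaSq than in the other Ba/Sq lines (adjusted p = 9.83e-05), where it was at most 0.348 CPM. BURP-24BaSq was at the same time the line with the lowest Gclc and Gclm. Txn1 was higher by 1.87 (0.00313), and of the NADPH genes Me1 by 1.22 (0.0118) and Idh1 by 1.01 (0.0236). Lower were Ugdh (-2.58, 0.000146), Aox1 (-3.32, 0.00114) and Ftl1 (-2.87, 0.000763). Among the detoxification genes, Osgin1 (2.06, 0.00185) and Ptgr1 (1.27, 0.00931) were higher. Of the host markers, 6 of 6 endothelial and 2 of 7 fibroblast markers were lower in BURP-24BaSq, with endothelial sums of 73.8 to 89.7 CPM against 237 to 349 CPM, and their part was not tested.

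Slc7a11 and several genes of amino acid supply are also targets of ATF4, the factor of the integrated stress response, so a list of 13 genes, Atf4 included, was examined beside the NRF2 lists. BURP-19NE, lowest in Slc7a11, had 0 of 13 lower, against 15% of all genes, and 2 higher, against 9.33%, Cth (2.32, adjusted p = 0.000175) and Phgdh (1.10, 0.00315), enzymes of cysteine and serine synthesis. In BURP-16SR the same 2 of 13 were higher, against 10.5% of all genes, Cth by 2.30 (0.00026) and Phgdh by 3.08 (6.99e-09). In BURP-12BaSq, the Ba/Sq line with the lowest Slc7a11, 4 of 13 were lower than in the other Ba/Sq lines, against 2.48% of all genes. They were Chac1 (-3.58, 0.0125), which degrades glutathione, Trib3 (-2.90, 0.0193), Mthfd2 (-1.70, 0.0083) and Atf4 itself (-1.26, 0.0169). In BURP-18BaSq, with a mean Slc7a11 of 28.2 CPM against 18.3 CPM, 1 of 13 was lower, against 4.09% of all genes. It was Asns (-1.42, 0.00626). The median log2 fold change of the 13 genes was -0.86 in BURP-12BaSq and -0.82 in BURP-18BaSq. In BURP-21BaSq, the line with the highest Slc7a11, 0 of 13 were called and the median was 0.08. BURP-17BaSq also had 0 of 13, with a median of 0.24. Any tie of this list to Slc7a11 was not tested. In BURP-24BaSq 1 of 13 was higher, Atf4 (1.01, 0.0459), against 0.945% of all genes. Cth was higher in female than in male lines (1.18, 0.0209), 1 of 13 against 1.22%, a call that neither fit by line made. In BURP-25BaSq 0 of 13 were called. Without C102-M1, 1 of 13 was higher, against 1.04% of all genes. It was Atf3 (3.25, 0.0347), at 285 CPM in C102-M3 and 14.3 CPM in C102-M30.

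Across the 10 genes together, BURP-25BaSq and BURP-24BaSq were the ends of the order. The mean of BURP-25BaSq was above the mean of the 8 lines in 10 of 10 genes, and that of BURP-24BaSq was below it in 10 of 10. Over 18865 genes with a mean of at least 10 counts per tumor, 41.8% and 41.2% lay above that mean in these lines. Without C102-M1, BURP-25BaSq was above it in 9 of 10, and on the log2 scale BURP-24BaSq was below it in all but 2 of the genes. The other 6 lines were above the mean in 3 to 6 of the 10 genes. These counts were chosen after the values were seen and were not tested. Pairs of genes were only loosely related. Of the pairs, Keap1 and Txnrd1 (Spearman rho -0.60), Slc7a11 and Srxn1 (0.61) and Keap1 and Gclm (0.58) had the values farthest from 0 over the 24 tumors. Over the 18 Ba/Sq tumors Gclc and Srxn1 were closest, at 0.78. Nfe2l2 itself ranged from -0.25 with Hmox1 to 0.53 with Gclm over the 24 tumors, and Nqo1 and Gclm gave 0.29. Tumors of a line share descent and all points share library scaling, so these values are descriptions. By the rule of highest Spearman rho over the 24 tumors, the genes most like Nqo1 were Tcam1 (0.83), Mapkap1 (0.79), Arhgef10 (0.78), H2-Q2 (0.77) and H2-Q4 (0.77). Tcam1 averaged only 0.493 CPM, and Arhgef10 gave 0.61 over the 18 Ba/Sq tumors. Those most like Gclm were Emg1 (0.87), Polg2 (0.84), the lactate transporter gene Slc16a1 (0.83), the hyaluronan synthase gene Has3 (0.82) and Pate2 (0.81). Pate2 averaged only 0.383 CPM. Those most like Nfe2l2 were Adat2 (0.88), Dnajb12 (0.82), the carbonic anhydrase gene Car2 (0.81), Atp13a1 (0.79) and Rxylt1 (0.78).

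**Figure D5:**
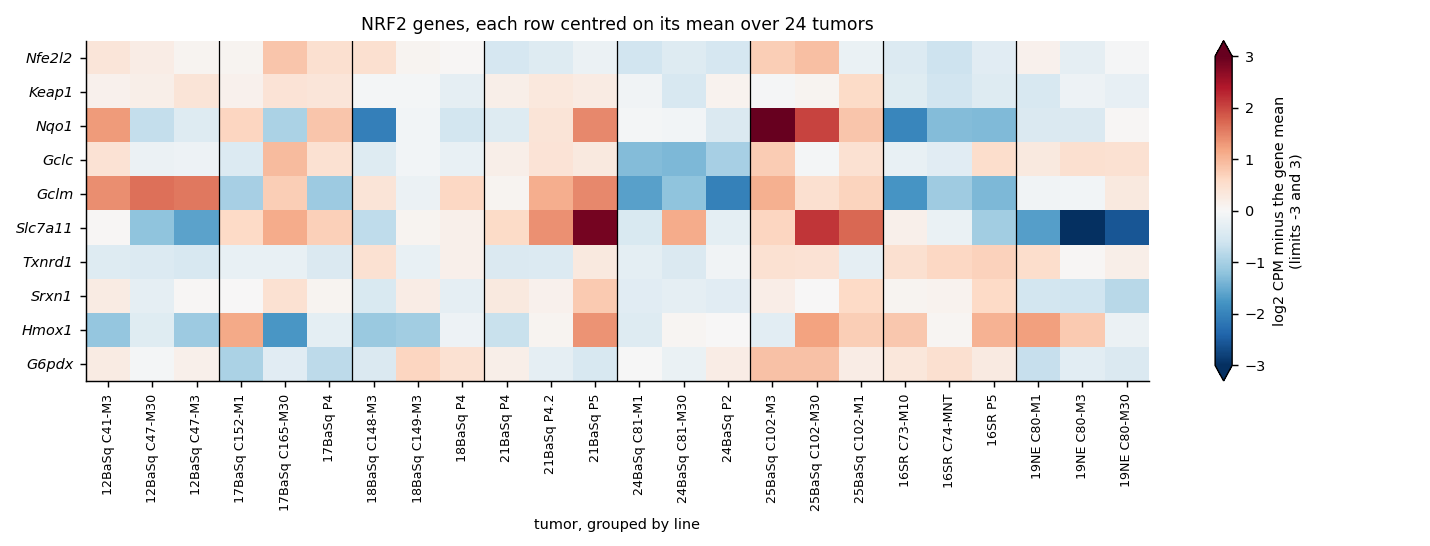
Level of each of the 10 genes in each tumor, as log2 CPM minus that gene's mean over the 24 tumors (colour, limited to -3 and 3), with tumors in columns grouped by line. BURP-25BaSq columns lie mostly above the mean and BURP-24BaSq columns mostly below it, and the widest departures are those of Slc7a11, Nqo1 and Gclm.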

How the data were processed

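Tumor RNA from 24 allografts was sequenced after ribosomal depletion. Per the labels and methods, the authors used CASAVA 1.8.2, STAR 2.6.0a, RSEM 1.3.1, GRCm38 and GENCODE M16, and deposited expected counts per gene, not normalized. Of the values 12.5% were not whole, and they were rounded to whole counts. Symbols came from GENCODE M21, in which 99.8% of identifiers were found. TMM-scaled CPM, filterByExpr and edgeR's quasi-likelihood test (edgeR 4.0.16, limma 3.58.1, R 4.3.3) were used, with Benjamini-Hochberg adjustment over all genes tested and a change above 2-fold at an adjusted p under 0.05 counted. DESeq2 1.42.0 was an alternative. The fit was checked on simulated counts. No tumors of a line agreed within counting noise, the variance between them being at least 24.0 times that noise. Members and lists were chosen with earlier results of these data known. The genes named were the 10, genes of the fixed lists, and the 5 most like Nqo1, Gclm and Nfe2l2. Not all calls of list genes were given. Left out were those of BURP-16SR against BURP-19NE and, among others, the NRF2 regulators and partners called in BURP-12BaSq (1 higher, 3 lower). Alternatives were size factors, DESeq2, other filters, 1 fit over all 24 tumors and leaving out tumors or lines.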

Additional observations from a re-analysis of the deposited data

How the results depend on the processing

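Of 110 log2 fold changes of the 10 genes, 15 changed sign under some alternative other than leaving out a tumor or line, and 0 of those had been called in either fit. The number of the 10 genes called in BURP-16SR against the Ba/Sq lines was 1, and became 2 with DESeq2 or 1 fit over all 24 tumors, and 0 without a filter or without both C102-M1 and C102-M30 (0 to 1 on leaving out a tumor). For BURP-16SR against BURP-19NE it was 4, and became 2 with DESeq2, without a filter or in 1 fit over all tumors (1 to 3). For BURP-24BaSq against BURP-16SR it was 2, and became 1 without a filter, with at least 10 counts in every tumor or in 1 fit (1 to 3). For BURP-12BaSq it was 0, and became 1 with DESeq2 and 2 in 1 fit (0 to 0), and for BURP-21BaSq it was 0 and became 1 in 1 fit (0 to 0). For BURP-24BaSq against the other Ba/Sq lines it was 2 (0 to 2). For the sexes it was 0, becoming 1 with DESeq2 or in 1 fit (0 to 2). For BURP-25BaSq it was 1, becoming 0 with at least 10 counts (0 to 1). That filter took Nqo1 out of the BURP-25BaSq fit (4 counts in C148-M3) and out of BURP-24BaSq against BURP-16SR (7 counts in C73-M10). Nqo1 was therefore not tested in those fits. Slc7a11 in BURP-19NE against the Ba/Sq lines was called under all 27 alternatives, at log2 fold changes of -3.90 to -2.98.

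The number of all genes called fell with at least 10 counts in every tumor from 5108 to 2001 in BURP-19NE, from 4029 to 1594 in BURP-16SR and from 2065 to 958 in BURP-18BaSq (703 to 2355 on leaving out a tumor), which tests fewer genes. It was 3413 for BURP-18BaSq in 1 fit. For BURP-12BaSq it was 941, with 2203 by DESeq2 and 2370 in 1 fit (208 to 1118). For BURP-17BaSq it was 220, with 618 by DESeq2, 1466 in 1 fit and fewer at 10 counts (54 to 286). For BURP-21BaSq it was 4, with 370 by DESeq2, 21 without a filter, 2 at 10 counts, 707 in 1 fit and 112 without both C102-M1 and C102-M30 (0 to 123). For BURP-24BaSq it was 339, with 757 and 1681 (77 to 434). For BURP-25BaSq it was 56, with 163 by DESeq2, 85 without a filter, 12 at 10 counts, 647 in 1 fit and 115 without both (9 to 320). For the sexes it was 414, with 1155 by DESeq2, 191 at 10 counts, 1473 in 1 fit, and 0 with counts summed per line or line as a random effect (225 to 1196). The cause of these differences was not tested. No paired analysis was possible because the labels do not say that their numbers pair tumors of different lines. Leaving out a tumor leaves groups of 2, and the low levels of Nqo1 limit what could be seen in BURP-16SR.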
